A study of Homo sapiens with 6 samples.

Results

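The established human diffuse large B-cell lymphoma lines KARPAS-422 and Pfeiffer were compared gene by gene, with all 6 expression arrays of the 6 in the study: 4 of KARPAS-422 and 2 of Pfeiffer. The arrays were assigned by the line named in the sample title. Each line carried a lentiviral short hairpin for 10 days. KARPAS-422 had 2 arrays with a hairpin against a non-mammalian sequence (shNTC) and 2 with a hairpin against EZH2 (shEZH2), and Pfeiffer had 1 array of each. All cells therefore shared infection in medium with 10% serum and 8 µg/ml polybrene, 2 days of virus and 2 days of selection at 1 µg/ml puromycin, and no uninfected cells are part of the comparison. The line difference was estimated with the hairpin as a covariate, and the difference in the 3 shNTC arrays alone is also given. Each side of the comparison is 1 line, so the p-values measure the spread between these arrays, not between patients or lines. The labels call the KARPAS-422 arrays biological replicates and do not say whether they came from separate infections.

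The hairpins are shown because every array carries one of them. The capitals mark the sense stem, bases 5 to 25, and the antisense arm after the loop is its exact reverse complement.
shControl: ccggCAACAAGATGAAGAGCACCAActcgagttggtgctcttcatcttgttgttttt
shEZH2: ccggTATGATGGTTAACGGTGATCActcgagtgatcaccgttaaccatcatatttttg

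Diffuse large B-cell lymphoma arises from mature B cells, often from cells at or past the germinal centre, where B cells diversify their antibody genes under the control of BCL6 and EZH2. Cells that leave the germinal centre switch on IRF4, XBP1 and, through CD40 and NF-kappaB, a set of cytokine and survival genes. EZH2 is the enzyme of Polycomb repressive complex 2, which silences genes by methylating histone H3. Both lines are known as EZH2-mutant lines of germinal centre type, and the arrays do not measure the mutations.

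Values are log2 signals, 1 unit being a 2-fold change, and differences are KARPAS-422 minus Pfeiffer unless said otherwise. Where 2 Pfeiffer values are given, the first is the shNTC and the other the shEZH2 array, and values after "against" are Pfeiffer's. A value in brackets after "shNTC" is the same difference, or the same list's counts higher in KARPAS-422 and in Pfeiffer and its median, in the shNTC arrays alone. Where all 6 signals of a gene are printed, its shNTC difference can be read from them. Calls in the shNTC arrays took their spread from the KARPAS-422 replicates of both hairpins, and Pfeiffer was assumed to vary alike. The test was limma's, with adjustment over 13036 genes, and a gene was called at an adjusted p under 0.05. After 431 genes on X or Y and 26 without an autosomal placement were left out, 12579 autosomal genes remained. Of these, 6290 were called (50%), 2937 higher in KARPAS-422 (23.3%) and 3353 higher in Pfeiffer (26.7%). All KARPAS-422 arrays lay above both Pfeiffer arrays for 3296 genes (26.2%) and below both for 3995 (31.8%). Differences of at least 1 log2 unit were called for 1391 genes higher in KARPAS-422 (11.1%) and 1905 higher in Pfeiffer (15.1%). With so much of the table called, a call by itself says little about a gene, and the counts below are read against these shares. The share called was 32.7% of 18990 autosomal genes with no filter on low signals, and 39.8% of the 12579 without the hairpin covariate. The direction of the overall balance depended on scaling: the share of calls higher in KARPAS-422 was 46.7% as deposited and 62.9% after centring each array on its median, which moved the median difference of all genes from -0.052 to 0.18.

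The 6 arrays had equal trimmed means, medians of all probe sets between 6.07 and 6.41, and correlated at 0.978 to 0.982 between replicates, 0.950 to 0.977 between hairpins of a line and 0.729 to 0.757 between lines (across genes, which are not independent replicates). A low signal has an uncertain size on this scale, so a large difference of a gene that is dim in 1 line shows that the gene was bright in the other and does not fix the fold. Where a gene had several probe sets the brightest stood for it, and of 3491 called genes with more than 1, 511 (14.6%) had another of the opposite sign. In bulk RNA, fewer cells that carry a transcript and less of it per cell cannot be told apart.

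The B cell label was checked first. MS4A1, the surface protein CD20, was bright in both lines, at 13.86 and 13.62 with shNTC and 13.81 and 13.78 with shEZH2 in KARPAS-422 and 13.91 and 14.13 in Pfeiffer, and was not called (adjusted p = 0.0571). PAX5, the transcription factor that keeps cells in the B lineage, read 13.23 and 12.73 with shNTC and 13.19 and 13.33 with shEZH2 in KARPAS-422 and 12.60 and 13.05 in Pfeiffer, and was not called either (difference 0.29, adjusted p = 0.121). CD79A, which carries the signal of the B cell receptor, read 12.83 and 12.73 with shNTC and 12.70 and 12.67 with shEZH2 in KARPAS-422 and 8.17 and 9.13 in Pfeiffer. It was higher in KARPAS-422 by 4.08 (SE 0.21, n = 4 and 2, adjusted p = 3.73e-06). EZH2 overlapped between the lines: it read 11.71 and 11.57 with shNTC and 10.52 and 10.55 with shEZH2 in KARPAS-422 and 11.65 and 10.24 in Pfeiffer, with a line difference of 0.15 (SE 0.11, adjusted p = 0.31) and of -0.0033 in the shNTC arrays. The line difference has a 95% interval of -0.11 to 0.41. In both lines the shEZH2 arrays were lower than the shNTC arrays.

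Some genes were bright in 1 line and dim in the other on every array. By a definition chosen after seeing the data, 85 called genes (0.676% of those tested) lay above the upper quartile of all signals (8.76) on all 4 KARPAS-422 arrays and below the median (6.21) on both Pfeiffer arrays. The opposite pattern was found for 210 genes (1.67%). By this definition every such gene met the filter on low signals only through the line where it was bright, so it had to differ. Both cut-offs came from all arrays pooled. The median of each KARPAS-422 array (6.07 to 6.16) lay below 6.21, and those of the Pfeiffer arrays (6.29 and 6.41) above it. The patterns also asked different numbers of arrays to be bright and dim, so their counts are not like for like.

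**Figure D1:**
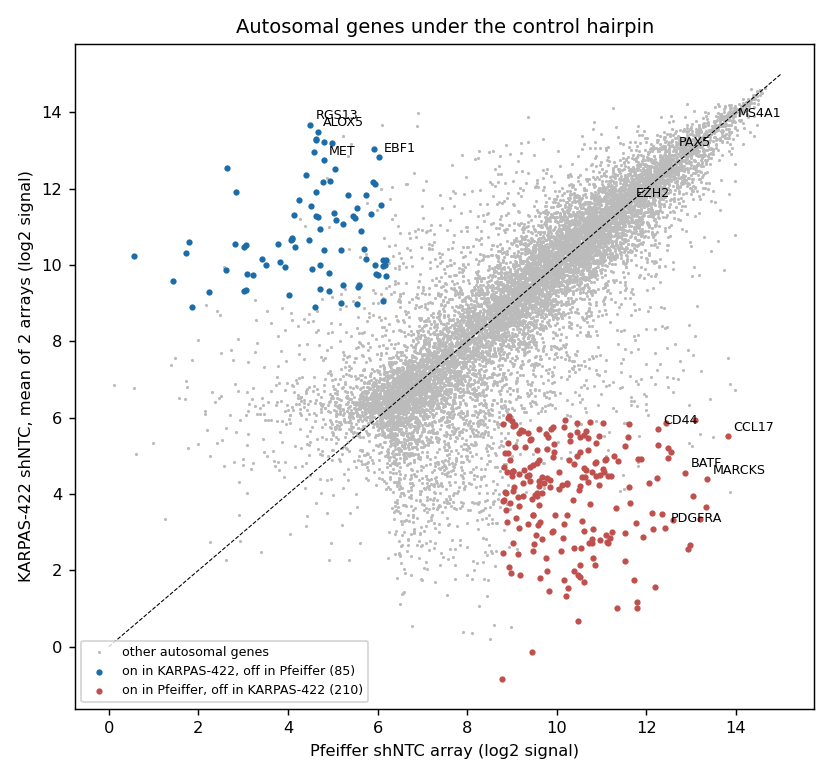
Each point is an autosomal gene, with the Pfeiffer shNTC array on the x axis and the mean of the 2 KARPAS-422 shNTC arrays on the y axis, both in log2 signal. The dashed line marks equal signal, blue points are the 85 genes bright in KARPAS-422 and dim in Pfeiffer, and red points are the 210 with the opposite pattern. MS4A1, PAX5 and EZH2 lie near the line.

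The genes with the largest difference in favour of KARPAS-422 included signalling genes of germinal centre B cells, Fc receptors and genes better known from other tissues. RGS13, an inhibitor of G protein signalling typical of germinal centre B cells, read 13.78 and 13.56 with shNTC and 13.41 and 13.63 with shEZH2 in KARPAS-422 and 4.50 and 4.16 in Pfeiffer. Its difference was 9.27 (SE 0.12, adjusted p = 3.45e-08). ALOX5, the enzyme that starts leukotriene synthesis, read 13.49 and 13.49 with shNTC and 13.59 and 13.58 with shEZH2 against 4.66 and 3.59, a difference of 9.41 (SE 0.23, adjusted p = 1.34e-07). MET, the receptor of hepatocyte growth factor, read 12.85 and 12.64 with shNTC and 12.79 and 12.68 with shEZH2 against 4.80 and 3.74, a difference of 8.47 (SE 0.22, adjusted p = 1.59e-07). In these 3 genes the lowest KARPAS-422 array lay far above the higher Pfeiffer array.

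EBF1, a transcription factor that specifies the B lineage together with PAX5, read 12.94 and 12.70 with shNTC and 12.83 and 12.78 with shEZH2 in KARPAS-422 and 6.02 and 6.01 in Pfeiffer (difference 6.80, SE 0.11, adjusted p = 5.07e-08). Unlike PAX5, its arrays did not overlap between the lines. GNG2, a G protein subunit, differed by 8.31 (shNTC 8.67), and the thymocyte selection factors TOX and TOX2 by 7.59 (shNTC 7.47) and 7.71 (shNTC 8.22). SNAI2, a repressor known from epithelial to mesenchymal change, read 12.21 and 12.13 with shNTC and 12.86 and 12.61 with shEZH2 against 4.79 and 4.12. DCN, an extracellular matrix proteoglycan of connective tissue, read 13.71 and 13.60 with shNTC and 13.59 and 13.43 with shEZH2 against 6.88 and 7.17, and ITGA4, an integrin subunit that binds VCAM1, read 11.99 and 11.82 with shNTC and 12.26 and 12.36 with shEZH2 against 2.84 and 4.11. PDGFD, a growth factor, differed by 7.53 (shNTC 7.12), FNDC1, a matrix protein gene, by 8.32 (shNTC 7.94), and SPX, a peptide hormone gene, by 8.13 (shNTC 8.41). TNNI1, a troponin of slow skeletal muscle, differed by 9.52 (shNTC 9.90) from Pfeiffer signals of 2.63 and 2.81, and SMIM14, a small membrane protein gene, by 6.84 (shNTC 7.56). LAMP3, a lysosomal membrane protein, and IFI44, an interferon-induced gene, differed by 7.49 and 7.82. Both were brighter on the shEZH2 than on the shNTC arrays of KARPAS-422. LAMP3 read 11.83 and 11.58 with shNTC and 13.44 and 13.26 with shEZH2. IFI44 read 11.49 and 11.23 with shNTC and 13.23 and 13.18 with shEZH2.

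The inhibitory Fc receptor gene FCGR2B read 13.31 and 13.23 with shNTC and 13.47 and 13.46 with shEZH2 in KARPAS-422 and 4.63 and 5.90 in Pfeiffer, a difference of 8.10 (adjusted p = 1.59e-07), and FCRLB, an Fc receptor-like gene, differed by 6.84 (shNTC 7.09). FCGR2C differed by 7.19 (shNTC 7.75), but FCGR2B and FCGR2C are near-identical copies that probe sets may not separate. Without the probe sets marked as shared between transcripts, FCGR2C turned to -2.12 (adjusted p = 0.0258).

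The largest differences in favour of Pfeiffer included a chemokine, activation-linked factors and epithelial junction genes. CCL17, a chemokine that attracts T cells through CCR4, read 5.43 and 5.60 with shNTC and 5.54 and 5.23 with shEZH2 in KARPAS-422 and 13.81 and 14.39 in Pfeiffer, a difference of -8.65 (SE 0.21, adjusted p = 1.3e-07). MARCKS, a membrane substrate of protein kinase C, read 4.82 and 3.97 with shNTC and 4.96 and 4.62 with shEZH2 against 13.36 and 13.37 (difference -8.77, SE 0.29, adjusted p = 3.67e-07). BATF, a transcription factor needed for antibody class switching, read 4.90 and 4.23 with shNTC and 4.22 and 4.001 with shEZH2 against 12.86 and 12.62 (difference -8.40, SE 0.27, adjusted p = 3.33e-07). In all 3 genes both Pfeiffer arrays were bright and all KARPAS-422 arrays dim.

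EPCAM, an epithelial adhesion molecule, read 2.86 and 4.45 with shNTC and 5.64 and 4.90 with shEZH2 against 13.33 and 12.98, a difference of -8.69, and TJP1, a scaffold of tight junctions, differed by -8.43 (shNTC -9.10). ST14, a membrane protease of epithelia, differed by -8.60 (shNTC -8.86). SERPINB1, a protease inhibitor, differed by -9.43 (shNTC -10.38) with KARPAS-422 signals spread from 0.56 to 4.57. GPR183, the oxysterol receptor that guides B cells out of follicles, read 4.98 and 5.44 with shNTC and 4.88 and 5.05 with shEZH2 against 12.48 and 13.08 (difference -7.69). SGK1, a kinase often mutated in lymphoma, differed by -7.50 (shNTC -7.14), IL17RB, a cytokine receptor, by -8.09 (shNTC -7.78), LY75, an endocytic receptor, by -9.37 (shNTC -8.51), and YBX3, a nucleic acid binding protein, by -9.60 (shNTC -9.84). FBP1, an enzyme of gluconeogenesis, differed by -8.17 (shNTC -7.44), RRAGD, a GTPase that signals amino acids to mTORC1, by -9.36 (shNTC -9.05), and MGARP, a mitochondrial protein gene, by -10.34 (shNTC -10.31). GNB4, a G protein subunit, read 3.61 and 4.52 with shNTC and 7.50 and 7.71 with shEZH2 against 13.87 and 13.72, and its KARPAS-422 arrays differed by hairpin. The probe set annotated to the heavy chain locus, IGH, differed by -6.99 (shNTC -6.99). MYO10, an unconventional myosin, and UCHL1, a ubiquitin hydrolase, differed by -9.85 (shNTC -9.29) and -7.78 (shNTC -7.61), and lost their calls without shared probe sets (MYO10 -1.12, adjusted p = 0.0624, and UCHL1 -0.66, adjusted p = 0.115).

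**Figure D2:**
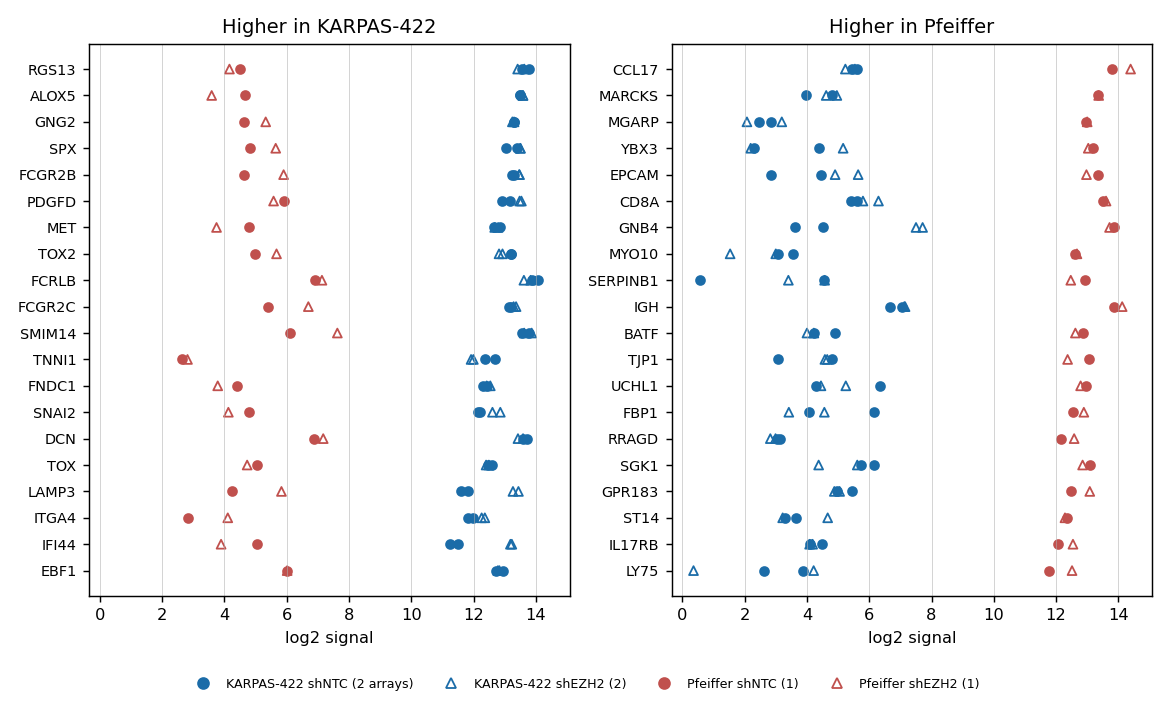
The log2 signal of the 20 genes with the largest difference in each direction is shown on every array, with KARPAS-422 in blue, Pfeiffer in red, filled circles for shNTC and open triangles for shEZH2. In each gene the 4 KARPAS-422 arrays lie on 1 side of both Pfeiffer arrays. In SERPINB1 the KARPAS-422 arrays run from 0.56 to 4.57.

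The genes were then read by role, in lists of which 769 of 956 autosomal members were measured. Of 29 measured genes of B cell identity, 15 were higher in KARPAS-422 and 7 in Pfeiffer, against 23.3% and 26.7% of all genes, with a median difference of 0.30 against -0.052 over all genes tested (shNTC 15 and 8, median 0.40). Besides EBF1 and CD79A, the Fc receptor-like genes FCRL1 and FCRL2 were higher in KARPAS-422 by 7.59 (shNTC 8.81) and 6.74 (shNTC 7.41), and CD180, a Toll-like receptor homologue of B cells, read 11.12 and 10.95 with shNTC and 11.08 and 11.11 with shEZH2 against 4.37 and 6.34 (difference 5.71, adjusted p = 1.09e-05). CD22, an inhibitory receptor, differed by 3.64 (adjusted p = 5.35e-05, shNTC 3.05). Among the 7 members higher in Pfeiffer, CD83, an activation marker, read 7.57 and 7.55 with shNTC and 8.19 and 8.46 with shEZH2 against 13.82 and 14.10 (difference -6.02, adjusted p = 1.39e-07). CIITA, the master regulator of MHC class II genes, differed by -2.82 (shNTC -3.13), and IKZF3, the zinc finger factor Aiolos, by -1.30 (shNTC -1.32). CD79B, the partner of CD79A, differed by -1.38 (shNTC -1.79), but its probe sets disagreed in sign, and without shared probe sets it read 0.60 with no call (adjusted p = 0.0941).

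Of 26 germinal centre genes, 15 were higher in KARPAS-422 and 5 in Pfeiffer, with a median of 1.08 (shNTC 16 and 4, median 1.05). MEF2C, a transcription factor needed for germinal centre formation, read 12.36 and 12.07 with shNTC and 11.79 and 11.75 with shEZH2 in KARPAS-422 and 4.93 and 5.92 in Pfeiffer (difference 6.57, adjusted p = 1.7e-06). SERPINA9, a protease inhibitor restricted to germinal centre B cells, read 12.44 and 11.93 with shNTC and 11.38 and 11.62 with shEZH2 against 5.90 and 5.07 (difference 6.36, adjusted p = 1.59e-07). STAP1, an adaptor downstream of the B cell receptor, differed by 4.62 (shNTC 5.45), and MME, the surface enzyme CD10, by 1.77 (adjusted p = 9.6e-06, shNTC 1.67). BCL6, the central repressor of the germinal centre programme, was not called at 0.20 (adjusted p = 0.265, shNTC 0.50), but was called in the shNTC arrays (adjusted p = 0.00757), and its probe sets disagreed in sign. The members higher in Pfeiffer included receptors that position B cells. CXCR4, the receptor that draws cells to the dark zone, read 6.37 and 6.62 with shNTC and 8.82 and 8.89 with shEZH2 in KARPAS-422 and 13.42 and 13.38 in Pfeiffer, and the follicle homing receptor CXCR5 read 4.51 and 5.82 with shNTC and 5.14 and 5.06 with shEZH2 against 9.56 and 9.70. Their differences were -5.72 (adjusted p = 3.13e-05) and -4.49 (adjusted p = 4.95e-05). The retention receptor S1PR2 and the transcription cofactor LMO2 differed by -1.08 (shNTC -1.20) and -2.21 (shNTC -1.82).

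The plasma cell and post-germinal centre genes ran the other way. Of 26 measured, 18 were higher in Pfeiffer and 2 in KARPAS-422, with a median of -1.64 (shNTC 2 and 20, median -1.43). JCHAIN, the chain that joins IgM and IgA multimers, read 7.46 and 5.97 with shNTC and 8.24 and 8.82 with shEZH2 in KARPAS-422 and 13.98 and 14.01 in Pfeiffer (difference -6.37, adjusted p = 2.75e-05). CD44, an adhesion receptor lost in the germinal centre, read 5.47 and 5.94 with shNTC and 4.69 and 5.18 with shEZH2 against 12.25 and 12.89 (difference -7.25, adjusted p = 2.5e-06). IRF4, a driver of plasma cell fate, read 6.39 and 6.83 with shNTC and 6.81 and 6.33 with shEZH2 against 10.98 and 11.24 (difference -4.52, adjusted p = 2.99e-06). MZB1, an antibody-secreting cell chaperone, differed by -5.56 (shNTC -5.69), and XBP1, which builds the secretory apparatus, by -2.20 (adjusted p = 0.000333, shNTC -1.81). PRDM1, which ends the B cell programme, was not called at -0.67 (adjusted p = 0.0614, shNTC -0.33). The 2 exceptions were SDC1, the plasma cell surface marker CD138, which read 10.48 and 10.92 with shNTC and 10.40 and 10.30 with shEZH2 in KARPAS-422 and 6.73 and 6.48 in Pfeiffer, and FOXP1, at 0.48 (shNTC 0.57), whose probe sets disagreed in sign. Thus markers of plasma cells did not all lie on 1 side.

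B cell receptor signalling genes were split, with 17 of 34 higher in KARPAS-422 and 9 in Pfeiffer, with a median of 0.44 (shNTC 17 and 9, median 0.32). The members higher in KARPAS-422 included several inhibitors of the receptor. PTPN6, the phosphatase SHP-1, read 12.33 and 12.27 with shNTC and 11.89 and 12.05 with shEZH2 against 7.97 and 7.79 (difference 4.25, adjusted p = 1.39e-07). DOK3, an inhibitory adaptor, differed by 4.50 (shNTC 4.88), INPP5D, the lipid phosphatase SHIP1, by 1.69 (shNTC 1.90), and CBLB, a ubiquitin ligase, by 3.43 (shNTC 3.49). RASGRP1, an activator of Ras, was higher by 4.20 (shNTC 4.26), whereas its relative RASGRP3 was higher in Pfeiffer, at -1.90 (shNTC -2.49). The RASGRP3 call was lost without the hairpin covariate (adjusted p = 0.0501). SH3BP5, a BTK-binding protein, read 6.26 and 6.35 with shNTC and 7.12 and 6.84 with shEZH2 against 11.78 and 12.001 (difference -5.25), and PIK3CD, the lymphocyte phosphoinositide kinase, was also higher in Pfeiffer, at -1.76 (shNTC -1.74). SYK and BLNK, the kinase and the adaptor that relay the receptor signal, differed by -0.25 (shNTC -0.086), which was not called (adjusted p = 0.0838), and by -1.25 (adjusted p = 0.00125, shNTC -1.19). LAT2, a transmembrane adaptor, differed by -4.15 (shNTC -4.57), a call lost without shared probe sets (-0.85, adjusted p = 0.0682).

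Of 8 measured immunoglobulin genes, 2 were higher in KARPAS-422 and 4 in Pfeiffer (shNTC 2 and 2, median -0.70). IGLL1, a surrogate light chain gene that serves the heavy chain in early B cells, read 11.25 and 11.36 with shNTC and 11.36 and 11.26 with shEZH2 against 6.39 and 6.25 (difference 4.99, adjusted p = 1.3e-07). VPREB3, a related gene, read 13.21 and 13.10 with shNTC and 12.76 and 12.63 with shEZH2 against 8.87 and 8.47 (difference 4.25, adjusted p = 9.96e-08). The light and heavy chain genes IGLC1, IGKC and IGHM were called higher in Pfeiffer at -4.39 (shNTC -5.41), -1.53 (shNTC -1.86) and -1.996 (shNTC -2.22), and IGHM was not called in the shNTC arrays (adjusted p = 0.0677). These chains are multigene families whose probe sets share sequence. Without shared probe sets, the difference was -0.098 for IGLC1 and -0.100 for IGHM with no call, and IGKC turned to 0.91 (adjusted p = 0.00166), so which chain each line carries is uncertain from these arrays.

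MHC class II genes, which present antigen to helper T cells, were higher in Pfeiffer for 10 of 19 members and in KARPAS-422 for 5, with a median of -0.45 (shNTC 3 and 10, median -0.64). HLA-DPB1 read 11.95 and 11.78 with shNTC and 12.56 and 12.59 with shEZH2 in KARPAS-422 and 13.85 and 14.21 in Pfeiffer (difference -1.81, adjusted p = 7.31e-06), and HLA-DMB, which loads peptides, differed by -2.13 (shNTC -1.74). HLA-DOB, which restrains loading, was higher in KARPAS-422 by 2.18 (shNTC 2.39). HLA-DRB4 read 10.67 and 10.80 with shNTC and 11.86 and 11.51 with shEZH2 against 6.86 and 6.65, but it belongs to a family of near-identical genes of which a chromosome carries different members, and its call is uncertain for that reason. Of 23 class I and antigen processing genes, 9 were higher in KARPAS-422 and 6 in Pfeiffer, with a median of -0.084. Their balance turned with the hairpin. In the shNTC arrays 8 were higher in KARPAS-422 and 10 in Pfeiffer (median -0.24), and with the Pfeiffer shNTC array left out 11 and 5 (median 0.30). The median also turned under other scalings (0.14 after median centring and 0.014 after quantile normalization). The lipid-presenting molecules CD1C and CD1D differed by 4.01 (shNTC 4.15) and 5.56 (shNTC 5.05), and the peptide transporter TAP2 by 1.75 (shNTC 1.34).

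Interferon-stimulated genes, the antiviral genes that STAT and IRF factors switch on, stood higher in KARPAS-422. Of 47 measured, 35 were higher in KARPAS-422 (74.5%, against 23.3% of all genes) and limma called 0 higher in Pfeiffer, also 0 at an unadjusted p under 0.05. All 35 differed by at least 1 log2 unit, and the list's median was 3.08. With no filter on low signals, 34 of 51 members were higher in KARPAS-422 and 1 in Pfeiffer, with a median of 2.40. With 64 added to the linear signals the counts were 35 and 1 (median 2.67), and without the hairpin covariate 28 and 0. IFIT1, which binds viral RNA, read 9.89 and 9.65 with shNTC and 12.89 and 12.83 with shEZH2 in KARPAS-422 and 3.08 and 3.76 in Pfeiffer (difference 7.89, adjusted p = 6.82e-06). TRIM22, an antiviral ubiquitin ligase, read 12.54 and 12.73 with shNTC and 13.42 and 13.36 with shEZH2 against 7.65 and 7.76 (difference 5.30, adjusted p = 2.4e-07). CMPK2, a mitochondrial nucleotide kinase, differed by 5.86 (shNTC 5.11), OAS3, a sensor of double-stranded RNA, by 5.49 (shNTC 4.29), and IRF7, a factor that amplifies the response, by 2.99 (shNTC 2.47).

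The size of that difference depended on the hairpin. In the shNTC arrays alone the median was 1.91 and 30 members were higher in KARPAS-422, and 5 members were higher in Pfeiffer: IFIH1 (-4.14), IRF1 (-1.31), IFI16 (-1.29), IFIT5 (-1.24) and UBE2L6 (-0.35). In the shEZH2 arrays the median was 3.86. IFIT1 was brighter with shEZH2 than with shNTC on the KARPAS-422 arrays and dim on both Pfeiffer arrays.

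Promoters of 2 of these genes are printed because 35 of the 47 genes were called in the same direction and the list is known to be read through the interferon-stimulated response element. Its core of 10 bases, with 2 inner bases left free, was searched on either strand in the 300 bases around each gene's start, mostly upstream of it, in RefSeq sequences of GRCh38.p14, and capitals mark the matches, here on the minus strand.
IFI44 (chr1:78649539-78649838, plus strand): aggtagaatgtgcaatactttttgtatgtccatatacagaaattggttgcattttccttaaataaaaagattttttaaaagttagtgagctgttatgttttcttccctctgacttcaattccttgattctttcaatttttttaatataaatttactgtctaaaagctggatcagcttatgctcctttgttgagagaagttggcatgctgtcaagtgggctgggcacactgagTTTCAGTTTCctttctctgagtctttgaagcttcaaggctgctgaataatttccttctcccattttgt
IFIT1 (chr10:89392373-89392672, plus strand): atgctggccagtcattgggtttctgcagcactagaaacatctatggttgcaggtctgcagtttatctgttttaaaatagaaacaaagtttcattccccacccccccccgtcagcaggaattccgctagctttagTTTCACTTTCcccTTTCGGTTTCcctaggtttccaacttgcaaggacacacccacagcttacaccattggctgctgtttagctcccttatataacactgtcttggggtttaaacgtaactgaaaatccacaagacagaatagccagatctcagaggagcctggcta
The core was found in 21 of the 36 list promoters with a sequence (58.3%) and in 18 of the 29 of called members (62.1%). It was found in 2.81% of the 10159 promoters of tested genes with a sequence and in 3.65% of all 27305. The list is known for this element, so its higher share goes with the choice of list and says nothing about the line difference. IFI44 held 1 match and IFIT1 held 2. Among the genes bright in KARPAS-422 and dim in Pfeiffer, 8 of 65 promoters held the core (12.3%), and among those bright in Pfeiffer, 4 of 151 (2.65%). Both sets met the filter on low signals only through their bright line, so these shares describe the sets and test nothing about the lines. A match is a run of letters and not a shown binding site.

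NF-kappaB subunits, inhibitors and target genes were higher in Pfeiffer for 25 of 36 members (69.4%, against 26.7% of all genes) and in KARPAS-422 for 7, with a median of -1.60 (shNTC 6 and 22, median -1.92). Among the subunits, RELB read 7.30 and 7.11 with shNTC and 7.29 and 7.48 with shEZH2 in KARPAS-422 and 10.41 and 10.37 in Pfeiffer (difference -3.10, adjusted p = 4.77e-06). REL, NFKB1 and NFKB2 differed by -3.06 (shNTC -3.17), -2.04 (shNTC -2.13) and -2.53 (shNTC -2.22), and RELA was not called at -0.22 (adjusted p = 0.106, shNTC -0.22). Among the feedback genes, NFKBIZ, a nuclear IkappaB protein, read 6.96 and 6.80 with shNTC and 8.75 and 8.84 with shEZH2 against 12.19 and 12.79 (difference -4.65, adjusted p = 6.56e-06), and TNFAIP3, the inhibitor A20, differed by -3.16 (adjusted p = 6.22e-06, shNTC -3.19).

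Among the targets, BCL2A1, a survival gene, read 5.82 and 5.33 with shNTC and 7.63 and 7.61 with shEZH2 against 13.19 and 13.52 (difference -6.75, adjusted p = 4.18e-06). ICAM1, the ligand of the integrin LFA-1, read 6.395 and 6.27 with shNTC and 5.67 and 6.03 with shEZH2 against 11.66 and 11.53 (difference -5.51, adjusted p = 5.88e-07). CD40, the receptor of T cell help, differed by -2.58 (shNTC -2.99). The list was not uniform. The cytokine genes TNF, LTA and CCL4 were higher in KARPAS-422, with TNF at 11.26 and 11.47 with shNTC and 10.96 and 11.13 with shEZH2 against 8.48 and 9.24 and CCL4 at 11.59 and 10.44 with shNTC and 11.19 and 10.87 with shEZH2 against 6.45 and 6.64, differences of 2.35, 4.55 (shNTC 6.09) and 4.48.

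The NFKBIZ promoter is printed as a member with a match to 1 spelling of the 10-base kappaB motif, also with 2 inner bases free, searched on both strands in the same windows. The capitals mark the match.
NFKBIZ (chr3:101827740-101828039, plus strand): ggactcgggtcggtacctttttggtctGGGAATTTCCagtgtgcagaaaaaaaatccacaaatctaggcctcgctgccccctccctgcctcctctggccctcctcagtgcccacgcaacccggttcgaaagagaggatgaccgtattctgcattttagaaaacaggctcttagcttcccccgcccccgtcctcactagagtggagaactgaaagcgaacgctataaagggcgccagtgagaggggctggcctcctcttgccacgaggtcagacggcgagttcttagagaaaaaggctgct
The motif was found in 7 of 28 list promoters with a sequence (25%), against 2.25% of those of tested genes. The list holds NF-kappaB target genes, so its higher share goes with the choice of list and says nothing about the line difference. In the promoters of genes bright in Pfeiffer and dim in KARPAS-422 the motif was found in 6 of 151 (3.97%), a set that met the filter only through Pfeiffer.

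Chemokines, cytokines and their receptors were higher in Pfeiffer for 26 of 41 members (63.4%) and in KARPAS-422 for 7, with a median of -1.87 (shNTC 7 and 25, median -1.60). The filter on low signals was met by the Pfeiffer arrays only for 829 of the genes tested and by the KARPAS-422 arrays only for 602, and such genes had to differ. Over all 60 cytokine genes of the list on the array, with no filter, 28 were higher in Pfeiffer and 7 in KARPAS-422, with a median of -0.90. With 64 added to the linear signals, the median of the 41 was -1.11. Of the 41, 10 were bright in Pfeiffer and dim in KARPAS-422 on every array. The receptor chain IL2RA, known as CD25, read 3.999 and 5.90 with shNTC and 5.12 and 5.75 with shEZH2 in KARPAS-422 and 12.49 and 12.27 in Pfeiffer (difference -7.19, adjusted p = 1.54e-05). CCR10, a homing receptor of antibody-secreting cells, read 2.96 and 1.53 with shNTC and 3.09 and 2.58 with shEZH2 against 11.53 and 11.72 (difference -9.08, adjusted p = 6.36e-06). The receptors IL4R, IL6R and IL21R differed by -6.78 (shNTC -5.47), -8.14 (shNTC -8.53) and -6.38 (shNTC -5.68), and the cytokines IL32 and IL10 by -8.39 (shNTC -8.40) and -4.35 (shNTC -4.60). IL10RB, a shared receptor chain, was higher in KARPAS-422 by 2.14 (shNTC 1.70). CCL22, which shares the receptor CCR4 with CCL17, read 3.47 and 3.68 with shNTC and 3.05 and 2.74 with shEZH2 against 8.35 and 9.68 (difference -5.78).

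Of 39 integrin and adhesion genes, 12 were higher in KARPAS-422 and 15 in Pfeiffer, with a median of -0.26 (shNTC 12 and 13, median -0.091). The integrin chain ITGB2 read 12.12 and 12.12 with shNTC and 11.67 and 11.81 with shEZH2 against 6.63 and 6.08 (difference 5.58, adjusted p = 7.15e-08). The chain ITGB3 read 9.56 and 9.94 with shNTC and 10.40 and 10.26 with shEZH2 against 3.21 and 4.07 (difference 6.398, adjusted p = 2.99e-07). ITGAL, the chain that pairs with ITGB2 in LFA-1, was higher in Pfeiffer at -4.33 (adjusted p = 0.000908, shNTC -3.77). So the chains of that pair were not higher in the same line. ICAM2 read 7.10 and 7.37 with shNTC and 9.38 and 8.80 with shEZH2 against 12.24 and 12.02, TSPAN33, a tetraspanin of activated B cells, differed by -3.95 (shNTC -3.72), and LGALS1, a galectin, was higher in KARPAS-422 by 3.78 (shNTC 2.59).

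Apoptosis genes split 9 to 12 among 34, with a median of -0.14 that turned to 0.085 after median centring. The shNTC counts were 11 and 12, median -0.18. The death receptor FAS read 12.11 and 12.14 with shNTC and 11.96 and 11.91 with shEZH2 in KARPAS-422 and 8.56 and 10.07 in Pfeiffer (difference 2.72, adjusted p = 0.000254), a call lost without shared probe sets (2.00, adjusted p = 0.0617). The death receptor TNFRSF10B differed by 1.76 (shNTC 1.44) and APAF1, the core of the apoptosome, by 2.35 (shNTC 2.16). The pro-apoptotic genes BIK and BNIP3 were higher in Pfeiffer, at -7.25 (shNTC -8.38) and -7.32 (shNTC -7.74). BCL2L1, the survival gene encoding BCL-XL, was higher in Pfeiffer at -1.45 (adjusted p = 3.08e-05, shNTC -1.48), and MCL1 was not called at -0.17 (adjusted p = 0.125, shNTC -0.088). BCL2 was called at 1.24 (shNTC 0.88) but its probe sets disagreed, and without shared probe sets it read -0.42 with no call (adjusted p = 0.170).

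Of 45 S phase genes, 14 were higher in KARPAS-422 and 6 in Pfeiffer, with a median of 0.17 (shNTC 13 and 6, median 0.19). These counts moved with the settings, to 25 and 4 after median centring (median 0.39) and to 1 and 3 without the hairpin covariate. Among the members were RFC3, a clamp loader whose probe sets disagreed in sign, at 1.49 (shNTC 1.55), and GINS3, a replisome gene higher in Pfeiffer, at -1.34 (shNTC -1.28). Of 41 genes of G2 and mitosis, 10 were higher in KARPAS-422 and 15 in Pfeiffer (shNTC 8 and 11, median -0.0016), and their median of -0.062 turned to 0.16 after median centring. Without the hairpin covariate 2 and 5 were called. The mitotic kinases AURKB and PLK1 differed in opposite directions, at 1.14 (shNTC 1.04) and -1.24 (shNTC -0.95), and the PLK1 call was lost without the hairpin covariate (adjusted p = 0.0753). Among 24 cell cycle inhibitors, cyclins and RB genes, 7 and 4 were called (shNTC 7 and 4, median 0.12). CDK6, a kinase of G1, was higher in Pfeiffer at -1.53 (shNTC -1.13), and CDKN1B and CCNE2, an inhibitor and a cyclin of CDK2, were higher in KARPAS-422 at 1.53 (shNTC 1.39) and 1.64 (shNTC 1.54). CDKN2A was called at 0.88 (shNTC 1.24), a direction that turned without shared probe sets (-0.42, adjusted p = 0.0567). MYC and ribosome biogenesis genes were called for 9 of 28, 6 of them higher in KARPAS-422 and 3 in Pfeiffer, 32.1% of the list against 50% of all genes (shNTC 6 and 2, median 0.11). After median centring the counts were 12 and 1, and with the Pfeiffer shNTC array left out 5 and 6. MYC itself read 13.20 and 13.02 with shNTC and 12.94 and 12.94 with shEZH2 against 12.38 and 12.18 (difference 0.75, adjusted p = 0.000242), and ODC1, its target in polyamine synthesis, differed by 1.23 (shNTC 1.35). Of 25 p53 genes, 7 were higher in KARPAS-422 and 5 in Pfeiffer (shNTC 9 and 3, median 0.25). Among them, GADD45A, a DNA damage response gene, read 8.94 and 8.85 with shNTC and 11.54 and 11.52 with shEZH2 against 12.09 and 12.76, and its call was lost without the hairpin covariate (adjusted p = 0.0738).

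Oxidative phosphorylation genes were called lower in KARPAS-422 for 23 of 65 and higher for 6, with a median of -0.20. This balance moved with the arrays and the scaling. With the shNTC arrays alone, 17 were lower and 12 higher in KARPAS-422, with a median of -0.041. With the Pfeiffer shNTC array left out, 38 were lower and 3 higher (median -0.33), and after median centring 13 and 14. By limma 0 of these calls, and 0 members at an unadjusted p under 0.05, reached 1 log2 unit, and the median turned to 0.026 after median centring. UQCRC2, a subunit of complex III, differed by -0.76 (shNTC -0.59). NDUFV3, a subunit of complex I, differed by -0.81 (shNTC -0.74), a call lost without shared probe sets (-0.42, adjusted p = 0.128). Glycolysis and hypoxia genes were called for 20 of 31, 12 higher in KARPAS-422 (shNTC 11 and 7, median 0.19). HK2, which traps glucose in the cell, read 12.37 and 12.34 with shNTC and 12.39 and 12.13 with shEZH2 against 10.25 and 9.95 (difference 2.21, adjusted p = 3.39e-06, with probe sets that disagreed in sign), and PFKFB3, an activator of glycolysis, was higher in Pfeiffer at -1.64 (shNTC -1.94). The unfolded protein response and secretory genes were higher in Pfeiffer for 12 of 28 and in KARPAS-422 for 5, with a median of -0.23 (shNTC 4 and 12, median -0.22). HYOU1, a chaperone of the endoplasmic reticulum, differed by -1.42 (shNTC -1.15), HSPA5, its main chaperone, by -0.85 (shNTC -0.60), and TRIB3, a stress-induced inhibitor, was higher in KARPAS-422 by 1.55 (shNTC 1.66). Of 23 sterol and fatty acid synthesis genes, 3 and 6 were called (shNTC 2 and 4, median 0.24), with ELOVL6, which lengthens fatty acids, at 1.70 (shNTC 1.92) and MVD, an enzyme of the mevalonate pathway, at -1.39 (shNTC -1.45).

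Polycomb genes were called for 17 of 29, 10 higher in KARPAS-422 and 7 in Pfeiffer, with a median of 0.050 that turned to -0.015 under cyclic loess normalization. The shNTC counts were 9 and 5, median 0.059. EED, the PRC2 subunit that reads the H3 methyl mark, read 13.31 and 13.35 with shNTC and 13.16 and 13.14 with shEZH2 in KARPAS-422 and 11.97 and 11.75 in Pfeiffer (difference 1.38, SE 0.079, adjusted p = 6.36e-06). SUZ12, the other core subunit, differed by 0.28 (adjusted p = 0.0273, with probe sets that disagreed in sign, shNTC 0.30) and EZH1, the relative of EZH2, by -0.43 (adjusted p = 0.018, shNTC -0.39), which was not called in the shNTC arrays (adjusted p = 0.0768). The accessory subunits PHF1 and MTF2 differed in opposite directions, at 1.04 (shNTC 1.14) and -0.67 (shNTC -0.56). Among PRC1 genes, PCGF2 read 7.34 and 7.12 with shNTC and 7.66 and 7.60 with shEZH2 against 10.28 and 10.07 (difference -2.75), CBX7 differed by -2.55 (shNTC -3.44) and PHC2 by 1.68 (shNTC 1.81). The demethylase gene KDM6B differed by 0.97 (shNTC 1.25). Of 26 other chromatin regulators, 12 were higher in KARPAS-422 and 6 in Pfeiffer. In the shNTC arrays, which leave out the Pfeiffer shEZH2 array, the counts were 9 and 9 and the median moved from 0.100 to -0.012. HDAC9, a class IIa deacetylase, read 9.12 and 8.01 with shNTC and 9.36 and 9.83 with shEZH2 against 3.29 and 3.79 (difference 5.54, adjusted p = 1.02e-05). The DNA methyltransferase DNMT3B read 6.58 and 6.77 with shNTC and 5.15 and 6.31 with shEZH2 against 9.77 and 9.37 (difference -3.36, adjusted p = 0.000117), and the methyltransferase genes KMT2D, SETD2 and SETD1B differed by 0.89 (shNTC 0.63), 1.11 (shNTC 0.90) and -1.51 (shNTC -1.28).

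Promoters of PRC2 targets are known to be rich in CpG, so the CpG dinucleotides of the 300-base promoters were counted. The promoters of RGS13 and MARCKS are printed as a gene bright in each line, with CG in capitals.
RGS13 (chr1:192635897-192636196, plus strand): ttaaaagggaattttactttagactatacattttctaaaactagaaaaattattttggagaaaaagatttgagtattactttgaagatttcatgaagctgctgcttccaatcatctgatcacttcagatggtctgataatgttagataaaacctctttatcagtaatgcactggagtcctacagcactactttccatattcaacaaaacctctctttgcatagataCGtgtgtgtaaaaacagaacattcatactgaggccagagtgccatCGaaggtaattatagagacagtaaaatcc
MARCKS (chr6:113857095-113857394, plus strand): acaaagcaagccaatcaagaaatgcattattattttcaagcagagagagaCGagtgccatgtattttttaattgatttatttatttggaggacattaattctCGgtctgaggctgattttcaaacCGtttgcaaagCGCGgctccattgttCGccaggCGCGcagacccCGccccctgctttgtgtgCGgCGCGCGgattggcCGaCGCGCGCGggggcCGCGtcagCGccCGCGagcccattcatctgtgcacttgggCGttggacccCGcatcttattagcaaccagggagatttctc
RGS13 held 2 CpG and MARCKS 25. The median was 26 (quartiles 17 and 34) over the 10159 tested genes with a promoter. It was 17 (5 and 31) over 65 genes bright in KARPAS-422 and dim in Pfeiffer, and 23 (9 and 33.5) over 151 with the opposite pattern. These ranges overlapped, and the printed pair differed more than the medians of the sets. Both sets met the filter on low signals only through their bright line, so the medians only describe them. The median was 26 over the called genes higher in KARPAS-422 and also over those higher in Pfeiffer, and 25 over the genes not called.

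Genes of other lineages were found in both lines. Of 43 measured developmental transcription factor genes, 13 were higher in KARPAS-422 and 14 in Pfeiffer (shNTC 13 and 11, median -0.22). SOX9, a factor of cartilage and epithelia, read 9.42 and 9.32 with shNTC and 10.68 and 10.18 with shEZH2 in KARPAS-422 and 4.71 and 4.57 in Pfeiffer (difference 5.26, adjusted p = 5.45e-06). ID2, an inhibitor of the E proteins that drive B cell genes, read 8.15 and 8.12 with shNTC and 9.88 and 9.48 with shEZH2 against 13.09 and 13.22 (difference -4.25, adjusted p = 1.43e-05). LYL1 and HHEX, factors of blood progenitors, were higher in KARPAS-422 by 2.64 (shNTC 2.85) and 3.61 (shNTC 3.34), and LHX2 and POU4F1, homeobox genes of the nervous system, were higher in Pfeiffer at -3.95 (shNTC -3.65) and -3.17 (shNTC -3.06).

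Of 29 T and NK cell markers on the list, 15 were measured, with 3 higher in KARPAS-422 and 7 in Pfeiffer (shNTC median -0.38). CD3G, a chain of the CD3 complex, read 11.74 and 12.08 with shNTC and 11.43 and 11.13 with shEZH2 against 4.63 and 3.005. CD3D, another chain, read 11.43 and 11.24 with shNTC and 10.53 and 10.61 with shEZH2 against 5.86 and 5.16. The third chain, CD3E, was not called at -0.13 (adjusted p = 0.792, shNTC 0.44). CD8A, the T cell coreceptor, read 5.398 and 5.61 with shNTC and 5.80 and 6.30 with shEZH2 in KARPAS-422 and 13.49 and 13.60 in Pfeiffer (difference -7.77, adjusted p = 1.59e-07), and ZAP70, the kinase of the T cell receptor, differed by -2.67 (shNTC -2.79). The summed linear signal of the list was 10876 and 11543 with shNTC and 8297 and 7575 with shEZH2 in KARPAS-422, and 19165 and 19694 in Pfeiffer. Such a sum is led by its brightest members, CD8A for Pfeiffer here and DCN for KARPAS-422 in the last list below. Of 26 myeloid markers 10 were measured, and CD14, LYZ and S100A8 were not among them. The summed signal of the 10 was 1696 and 1543 with shNTC and 3572 and 3599 with shEZH2 in KARPAS-422, against 5597 and 6495. Their median difference was -0.47 (shNTC -0.54). By limma, 4 of the 10 were called higher in Pfeiffer and 1 in KARPAS-422, SPI1 (difference 2.02, adjusted p = 0.000185). The sum was 12861 to 14769 against 12863 to 17486 for the 11 measured of 27 fibroblast, endothelial and epithelial markers. Those included DCN on the KARPAS-422 side and, on the Pfeiffer side, EPCAM and PDGFRA, a growth factor receptor that read 2.24 and 4.0 with shNTC and 4.06 and 0.52 with shEZH2 against 12.41 and 11.66. The part of other cells in these signals was not tested.

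**Figure D3:**
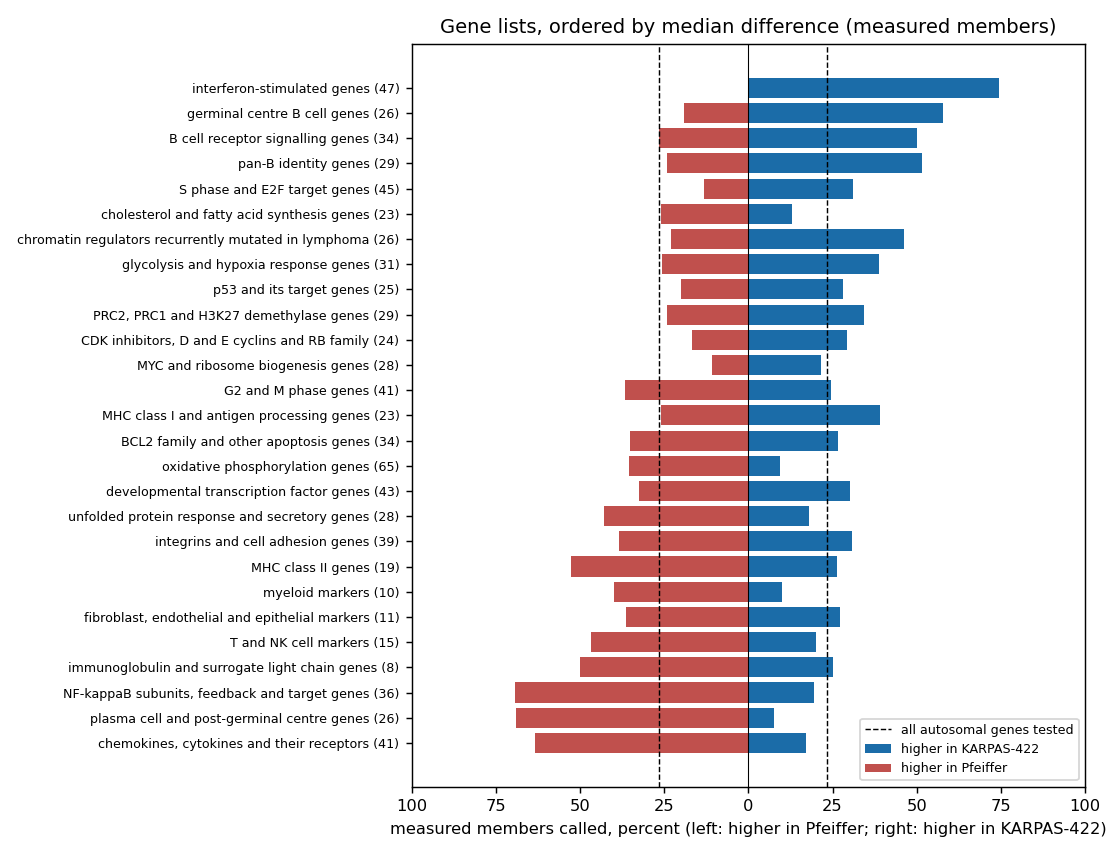
The bars show, for each list, the percent of measured members called higher in KARPAS-422 (blue, to the right) and higher in Pfeiffer (red, to the left), with the number measured in brackets and the dashed lines at 23.3% and 26.7% for all autosomal genes. Interferon-stimulated genes end on the KARPAS-422 side at 74.5%, and NF-kappaB genes, plasma cell genes and cytokines on the Pfeiffer side at 69.4%, 69.2% and 63.4%.

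Differences also ran along chromosomes. Taking all tested genes of an autosome, the median difference was lowest on chromosome 5 (-0.39, with 45.7% of 586 genes higher in Pfeiffer) and chromosome 16 (-0.37, 44.2% of 599), followed by chromosome 17 (-0.24). It was highest on chromosome 14 (0.33, with 46.6% of 440 genes higher in KARPAS-422) and chromosome 18 (0.16). In the shNTC arrays alone the medians of chromosomes 5, 16 and 14 were -0.34, -0.36 and 0.39. Copy number was not analysed here.

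**Figure D4:**
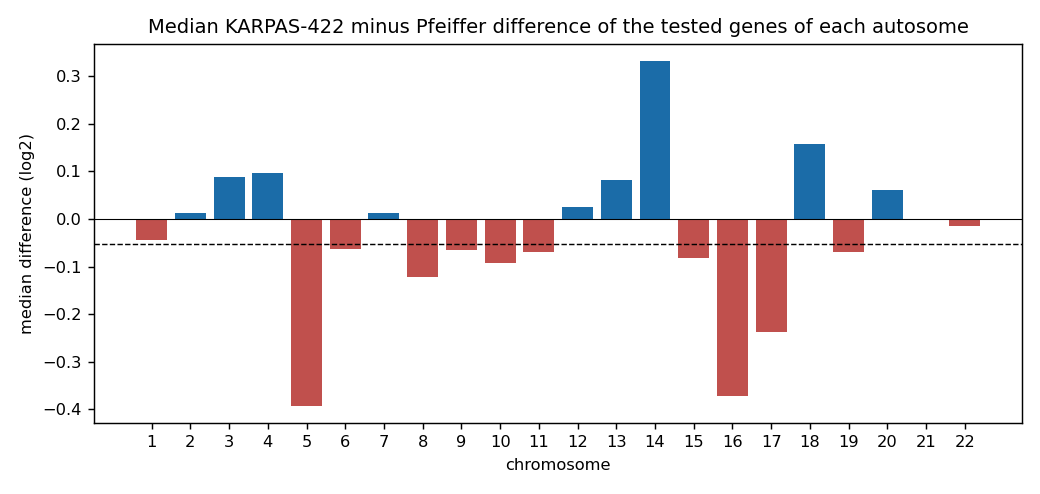
Each bar is the median log2 difference, KARPAS-422 minus Pfeiffer, of the tested genes of 1 autosome, blue above 0 and red below, with the dashed line at the median of all autosomal genes, -0.052. Chromosomes 5 and 16 lie lowest and chromosome 14 highest.

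Within chromosomes, runs of 25 neighbouring tested genes were ranked by their median, as a description with no test. Over 12051 runs the 5th and 95th percentiles of the median were -0.62 and 0.50. The most extreme run in favour of Pfeiffer lay on chromosome 12 between POU5F1P3 and BCL2L14, with a median of -2.04 (shNTC -2.07) and 13 of 25 genes higher in Pfeiffer. With 64 added to the linear signals its median was -1.29. It held YBX3, the lectin-like gene CLEC2D at -6.91 (shNTC -7.58), and ETV6, a transcription factor of blood cells, which read 4.67 and 5.98 with shNTC and 5.99 and 5.96 with shEZH2 in KARPAS-422 and 10.87 and 10.94 in Pfeiffer. A run on chromosome 8 between CPQ and RRM2B had a median of -1.72 (shNTC -1.55), with 18 of 25 higher in Pfeiffer. Its member LAPTM4B, a lysosomal membrane gene, read 5.91 and 5.17 with shNTC and 5.34 and 5.17 with shEZH2 against 10.61 and 10.31, and TSPYL5 differed by -6.27 (shNTC -6.02). A run on chromosome 2 between STAM2 and CERS6 was mixed, with 13 genes higher in Pfeiffer and 6 in KARPAS-422. Its median of -1.52 is the value of 1 gene, IFIH1, which was not called (adjusted p = 0.234) and changed sign with the hairpin. The run's median was -2.87 in the shNTC arrays and -0.84 with 64 added. It held COBLL1 at -7.75 (shNTC -7.81), RBMS1 at -6.27 (shNTC -6.38) and LY75. On chromosome 11, a run from EI24 to ST14 had a median of -1.13 (shNTC -1.11, and -0.74 with 64 added) and held the ETS factor FLI1 at -4.18 (shNTC -4.86) and APLP2 at -2.59 (shNTC -2.49). The run on chromosome 16 from NLRC5 to GOT2 (median -1.12, shNTC -0.82, 17 higher in Pfeiffer) held the neighbouring chemokine genes CCL22, CX3CL1 and CCL17, with CX3CL1 at -4.89 (shNTC -4.58), and SETD6 at -6.28 (shNTC -6.77).

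In favour of KARPAS-422, the run on chromosome 4 that began at RAPGEF2 had a median of 1.23 (shNTC 1.09), with 16 genes higher in KARPAS-422 and 8 in Pfeiffer. It held the antiviral helicase gene DDX60, at 9.39 and 9.48 with shNTC and 11.49 and 11.58 with shEZH2 against 7.02 and 7.47, and MARCHF1, a ligase that removes MHC class II from the surface, at 3.68 (shNTC 1.76). A run on chromosome 8 from PPP3CC to PPP2R2A (median 1.13, shNTC 1.34, 20 of 25 higher in KARPAS-422) held the death receptor genes TNFRSF10A, TNFRSF10B and TNFRSF10D, with PDLIM2, an adaptor of protein degradation, at 9.98 and 10.31 with shNTC and 10.54 and 10.40 with shEZH2 against 6.13 and 5.72. Chromosome 11 had runs from TMEM135 to MTMR2 (median 1.09, shNTC 1.02, 20 higher in KARPAS-422) and from AASDHPPT to PPP2R1B (median 1.05, shNTC 1.02, 17 higher). The first held the stress gene SESN3 at 3.08 (shNTC 2.53) and MTMR2 at 2.26 (shNTC 2.31), and the other held the kinase gene SIK2 at 2.68 (shNTC 2.90). A run on chromosome 19 from LENG9 to ZNF865 had a median of 1.05 (shNTC 0.96, and 0.67 with 64 added), with PPP6R1 at 1.61 (shNTC 1.77). Chromosomes 8 and 11 thus carried runs in both directions. With runs of 15 genes the most extreme on each side were on chromosomes 8 (1.68) and 12 (-3.68), and with 64 added these were 0.89 and -1.59. With runs of 51 genes they were on chromosomes 11 (1.03) and 16 (-1.02), and with 64 added 0.90 and -0.89.

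In the shNTC arrays alone, 2728 genes were higher in KARPAS-422 (21.7%) and 2822 in Pfeiffer (22.4%). In both fits and the same direction 5004 genes were called, which is 79.6% of the calls with the hairpin as covariate and 90.2% of those in shNTC arrays, and 0 were called in opposite directions. The 2 fits share the 3 shNTC arrays, and both took their spread from all 6 arrays, so this is not independent support. In the shNTC fit the 2 residual degrees of freedom were both in KARPAS-422, and the single Pfeiffer array was assumed to vary alike. Of the genes named above, RGS13 differed by 9.18 in shNTC arrays and 9.36 in shEZH2 arrays, EBF1 by 6.80 and 6.79, CCL17 by -8.30 and -9.01, and BATF by -8.30 and -8.51. Others did not keep their value: the line difference of 40 named genes was called different between the hairpins. Among these, GNB4 went from -9.80 under shNTC to -6.11 under shEZH2, FCRL1 from 8.81 to 6.37, CXCR4 from -6.93 to -4.52, FAS from 3.57 to 1.86 and IFI44 from 6.33 to 9.31.

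From shNTC to shEZH2 it shifted toward KARPAS-422 for 161 genes (1.28%) and toward Pfeiffer for 57 (0.453%), by limma's interaction term with 2 residual degrees of freedom, both in KARPAS-422. Interferon-stimulated genes made up 29 of the 161, out of 47 measured. XAF1, an apoptosis-linked interferon target, read 8.22 and 8.28 with shNTC and 12.62 and 12.44 with shEZH2 in KARPAS-422 and 4.97 and 3.20 in Pfeiffer. Its line difference was 3.28 under shNTC and 9.33 under shEZH2, a change of 6.05 (SE 0.30, adjusted p = 0.00124). RSAD2, the antiviral enzyme viperin, went from 2.41 to 7.51 (adjusted p = 0.00124), and IFI27 from 3.63 to 7.80 (adjusted p = 0.00393). IFIH1, the RNA sensor MDA5, read 4.56 and 5.52 with shNTC and 10.51 and 10.70 with shEZH2 in KARPAS-422 and 9.18 and 9.51 in Pfeiffer, so Pfeiffer was brighter under shNTC (-4.14) and KARPAS-422 under shEZH2 (1.10, adjusted p of the change = 0.0054). MPEG1, a pore-forming protein of phagocytes, went from 1.51 to 5.65.

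In the other direction, GPR18, a lipid receptor of lymphocytes, read 13.70 and 13.04 with shNTC and 13.71 and 13.66 with shEZH2 in KARPAS-422 and 5.24 and 8.87 in Pfeiffer, and its line difference went from 8.13 to 4.81 (adjusted p = 0.00564). LTA, the cytokine lymphotoxin alpha, went from 6.09 to 3.02 (adjusted p = 0.00393), with the 2 Pfeiffer arrays at 4.92 and 7.35. LGALS13, a galectin of placenta, went from 8.37 to 5.85, SEMA4A, a semaphorin, from 2.19 to -0.038, and NUTM1, a gene of testis, from 2.03 to -1.49. These changes rest on 1 Pfeiffer array per hairpin. By limma, 0 genes were called without KARPAS-422 shEZH2 replicate 1 or without replicate 2, where 1846 and 1715 had an unadjusted p under 0.05, against 2208 with all arrays.

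**Figure D5:**
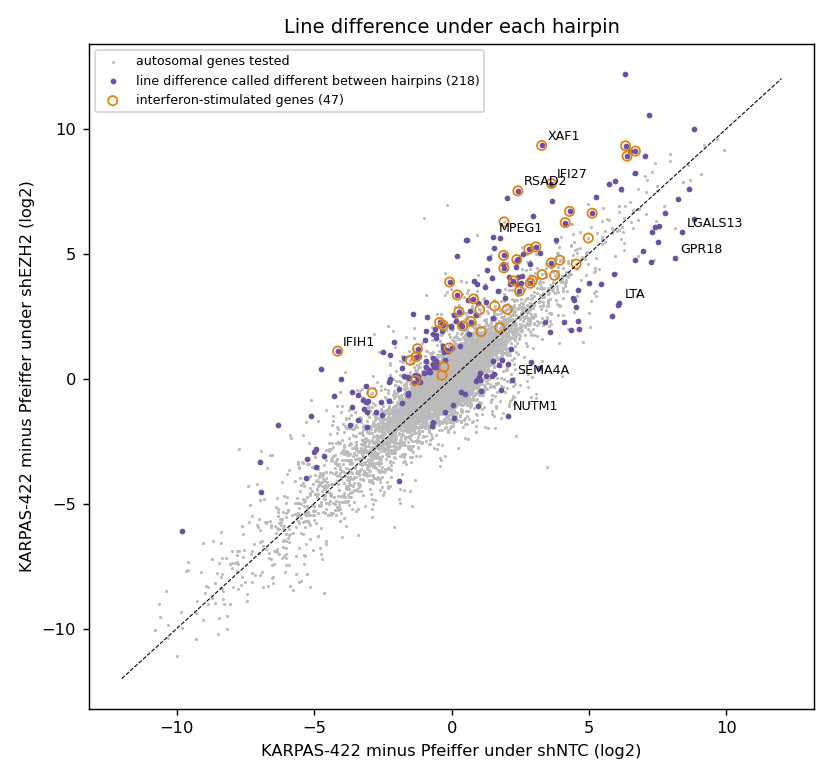
Each point is an autosomal gene, with its KARPAS-422 minus Pfeiffer difference (log2) in shNTC arrays on the x axis and in shEZH2 arrays on the y axis, and the dashed line marks no change. Purple points are the 218 genes whose line difference was called different between hairpins, and orange circles are the 47 interferon-stimulated genes. Most circles lie above the line.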

How the data were processed

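RNA from 6 infected cell cultures was measured on human Affymetrix expression arrays. The deposited values are log2 signals of 54675 probe sets, made with MAS5 per the submitters' processing notes; MAS5 version, scan settings and detection calls are not given in the sources used here. The authors' scaling left the same trimmed mean on every array. Control probe sets (62), those with several genes (1801) and those with none (11721) in the platform annotation were left out; 41037 matched the RefSeq table (GRCh38.p14, used for names, order and promoters). Genes needed at least 2 arrays above the median of all values, and the brightest probe set stood for the gene. Array number, not depth, limits precision.

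Differences were tested two-sided in R 4.3.3 by limma 3.58.1, whose eBayes step followed the intensity trend, and adjusted by Benjamini-Hochberg: line plus hairpin (3 residual degrees of freedom), and 4 group means (2) for shNTC arrays and for the difference between hairpins. The scripts were tested on simulated data. Scaling, filter, probe set choice, added constants, trend, left-out arrays, hairpin term and a replicate block were varied.

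Named genes were, by rule, EZH2, B cell checks, the 20 largest called differences per direction after adding 64 to linear values, up to 4 per direction in each list, 5 per direction for the hairpin dependence and up to 4 per run of neighbours. Outside the rule, chosen after their values were seen, were BCL2L1, BCL6, BLNK, CBLB, CD22, CD3E, CD40, EZH1, HSPA5, IL10, IL21R, IL32, IL4R, IL6R, INPP5D, IRF4, IRF7, ITGAL, KMT2D, MCL1, MME, NFKB1, NFKB2, OAS3, PRDM1, REL, RELA, RELB, SUZ12, SYK and TNFAIP3. Genes outside the rule are left out of every count of named genes. The comparison, lists and rules were chosen with earlier results of these data known.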

Additional observations from a re-analysis of the deposited data

Results flagged for a closer look

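For 40 named genes the KARPAS-422 minus Pfeiffer difference was called different between the hairpins by limma's interaction term, and the values here are the difference under shEZH2 minus that under shNTC (log2). Interferon-linked genes moved toward KARPAS-422: XAF1 (6.05), IFIH1 (5.24), RSAD2 (5.10), IFI27 (4.17), IFI44 (2.99), IFIT1 (2.42), CMPK2 (1.5004), DDX60 (1.64) and DDX60L (2.11). So did MPEG1 (4.14), MARCHF1 (3.84), GNB4 (3.70), DNAAF3 (3.07), PECAM1 (2.55), LGALS1 (2.39), ICAM2 (2.08), GADD45A (1.96), ENDOD1 (1.66), ID2 (1.41), NFKBIZ (1.31) and ALOX5 (1.17). Among B cell genes, CXCR4 (2.40), CD86 (1.44) and CD79B (0.82) moved toward KARPAS-422, and CD79A (-1.05), FCGR2B (-1.07), FCGR2C (-1.12), FCRL2 (-1.35), MEF2C (-1.43), STAP1 (-1.66), CD180 (-1.91) and FCRL1 (-2.44) moved toward Pfeiffer. The others that moved toward Pfeiffer were TOX2 (-1.02), SMIM14 (-1.44), FAS (-1.70), SEMA4A (-2.23), LGALS13 (-2.52), LTA (-3.07), GPR18 (-3.32) and NUTM1 (-3.52). Each rests on 1 Pfeiffer array per hairpin, and limma called 0 genes without either KARPAS-422 shEZH2 array or without the intensity trend. The unadjusted counts under 0.05 were then 1846, 1715 and 1767.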

How the results depend on the processing

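Called for the line difference were 261 genes named by rule. Of these, 211 kept call and direction under every setting run, 43 lost the call under some and 7 reversed under some. Genes named outside the rule were not followed through the settings. Reversed values without shared probe sets (_x_at, _s_at) were BCL2 -0.42, CD79B 0.60, CD8B 0.056, CDKN2A -0.42, FCGR2C -2.12 and IGKC 0.91, and IGKC read 0.78 as a mean of probe sets. TANC1, where another probe set became the brightest, read 0.41 with quantile normalization, 0.40 with median centring, 0.29 with cyclic loess and 0.17 with no filter. With Pfeiffer shEZH2 or Pfeiffer shNTC left out, EZH2 read -0.0033 or 0.30, IFIH1 -4.14 or 1.10, NUTM1 2.03 or -1.49 and SEMA4A 2.19 or -0.038, and NUTM1 read -0.032 without KARPAS-422 shNTC replicate 2. The cause was not tested. Signs of 12 of 27 list medians changed under some setting. Counts for the line difference ranged from 2557 to 2836 higher in KARPAS-422 and 2819 to 3110 higher in Pfeiffer with 1 array left out. With median centring they were 4236 and 2503, and 3729 and 2283 in shNTC arrays (62.0% against 49.2% higher in KARPAS-422). The hairpin dependence gave 161 and 57 genes, 93 and 20 with no filter, 156 and 36 with 64 added, 119 and 28 as means of probe sets, 0 and 0 without the trend (limma, 1767 at an unadjusted p under 0.05), and 0 to 336 and 0 to 123 with 1 array left out. Replicate numbers did not pair the KARPAS-422 arrays (correlation of deviations 0.0027 across genes, with 1 pair to compare); with them as a block the counts were 2731 and 3121 for the line, 2817 and 2869 in shNTC arrays, and 220 and 146 for the hairpin dependence. Dim signals limit the size of on and off differences.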
